A study of Mus musculus with 28 samples.

Results

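The 2 midline fractions of a sagittally sectioned mouse brain were compared with the 4 fractions beside them. The brain of a C57BL/6J male mouse aged 3 weeks, with no treatment or transgene named in the labels, was cut from one side to the other into 10 sagittal fractions, and the RNA of each fraction was read on 1 array. Fractions 5 and 6 hold the midline, fractions 3, 4, 7 and 8 are intermediate, and fractions 1, 2, 9 and 10 are lateral. These are 2 midline and 4 intermediate arrays of 28 in the series, whose other 18 arrays come from 2 further males of the same strain and age, sectioned into 12 coronal and 6 horizontal fractions. Groups were formed by fraction number alone. No position was measured more than once, so the 2 midline fractions stand in for replicates of each other, and every p-value below measures the spread between neighbouring fractions of 1 brain, which also holds anatomy. The labels state a width of 500 micron a fraction (100 sections). Sources differ on the thickness at 3 weeks, and positions here are therefore fraction numbers, not distances.

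The structures on either side of the brain's midline differ in kind from those farther out. The hypothalamus, which lines the third ventricle, makes releasing hormones and neuropeptides; the serotonin neurons of the raphe, the interpeduncular nucleus and the medial habenula also lie at or beside the midline. The striatum, whose medium spiny neurons carry dopamine and adenosine receptors, lies to either side. A fraction pools whole slabs of tissue, so fewer cells of a type and less RNA per cell cannot be told apart in these values.

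Levels below are log2 of the background-subtracted signal relative to the 75th percentile of the same array, so that 1 unit is a doubling. A probe was tested when it was well above background in both midline fractions or in all 4 intermediate ones, which left 28886 probes for 14848 gene symbols. Of these, 25079 were well above background on all 6 arrays, 3718 entered through the midline fractions alone and 89 through the intermediate fractions alone. A probe that entered through 1 side was selected for being detected there, and most of the genes with the widest gaps are of this kind. By limma's moderated test with Benjamini-Hochberg adjustment over all probes, 2 probes rose in the midline fractions (0.00692% of those tested) and 1 fell (0.00346%), while 1003 were higher and 1330 lower at an unadjusted p under 0.05. All 3 called probes were not well above background on any array of their low side and so entered through the other side alone, and limma called 0 of the 25079 probes detected on all 6 arrays (711 higher and 1400 lower at an unadjusted p under 0.05). Counted without a test, both midline levels lay above all 4 intermediate levels for 2891 probes (10.0%) and below them for 3640 (12.6%). Scaled to the array median instead, these counts were 3642 and 2100, where the scaling moved the median difference over all probes from -0.02 to 0.08. The gap between the groups exceeded 1 log2 for 44 probes with higher midline levels (0.152%), which name 38 genes, and for 17 with lower ones (0.0589%), which name 10. Of the 44, 8 were well above background on all 6 arrays, and of the 17, 10 were.

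**Figure D1:**
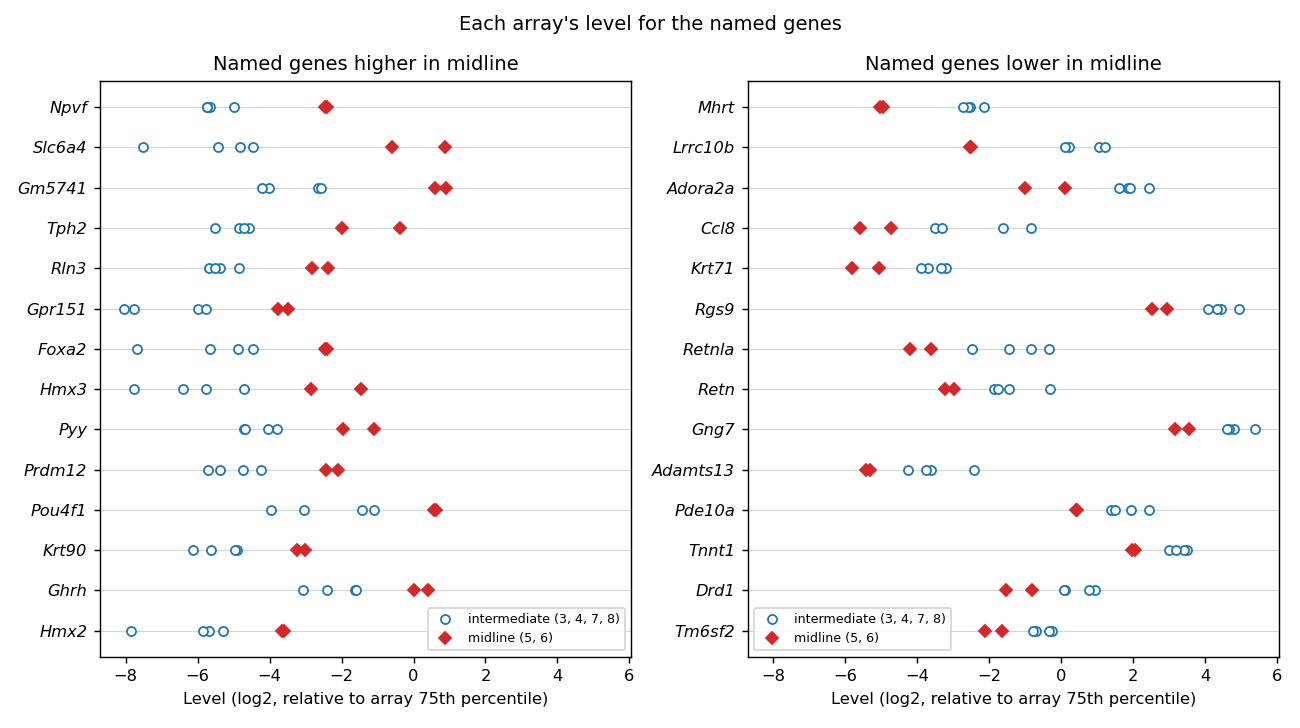
Level of each of 14 named genes higher in midline and 14 lower, on a log2 scale relative to the 75th percentile of the array, with 1 point per array. Red diamonds are fractions 5 and 6 and open circles fractions 3, 4, 7 and 8; in no row do the 2 kinds of point overlap.

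Arhgap36 encodes a protein known as an activator of Hedgehog signalling, and was the marker set for these fractions. The comparison was chosen with earlier results of these data known, so Arhgap36 is no independent check on position. Its level was 2.35 in fraction 5 and 2.30 in fraction 6, against 0.49, 1.62, 0.94 and -0.42 in fractions 3, 4, 7 and 8, and -3.04, -1.28, -1.79 and -0.30 in the lateral fractions 1, 2, 9 and 10. The midline levels were thus the highest of all 10, and the level declined outward on both sides as far as fractions 1 and 9. The difference was 1.67 log2 (SE 0.50, 3.18-fold; limma adjusted p 0.507). An exact two-sided permutation test over the 15 ways to choose 2 of 6 fractions gave p 0.133, the smallest this design allows. Every one of the 19 other settings gave a difference between 1.31 and 2.06, with no call.

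The named gene that rose was a hypothalamic peptide. Npvf, which encodes the precursor of the RFamide-related peptides made in the dorsomedial hypothalamus, stood at -2.46 and -2.39 in fractions 5 and 6. In fractions 3, 4, 7 and 8 it stood at -5.67, -5.75, -4.99 and -5.74 and was not well above background in any of them. The groups did not overlap. The gap of 2.53 log2 was measured to the undetected level in fraction 7, so its size is not fixed. Npvf rose at least 5.25-fold in the midline (limma adjusted p 0.0404, computed on intermediate levels that were not detected). For this and every "at least" below, low-side levels under the dimmest signal still detected on an array were raised to it. Such a figure is no strict bound, as a level above that signal can also be undetected. Npvf in fraction 4 (-5.75, beside -5.85) was such a level. Each figure depends on the scaling used here, and normexp, which adds an offset to every spot, gave smaller differences for dim genes. The 4 lateral levels of Npvf, -5.28 to -4.43, were also below the midline. Of 18 other settings 5 kept the call, with adjusted p from 0.0126 to 0.77. Without fraction 3, 4, 5, 6 or 8 the limma adjusted p was 0.226, 0.0915, 0.274, 0.179 or 0.13, while normexp background correction reduced the difference to 0.94.

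Other hypothalamic peptides were higher in both midline fractions without passing the test. Oxt, which encodes oxytocin, was at 5.18 and 4.73 in fractions 5 and 6, and at -3.09, 3.36, 2.52 and 0.49 in fractions 3, 4, 7 and 8. The groups lay apart by 1.37, and the intermediate levels themselves spanned over 6 log2, falling from fraction 4 to 3 and from 7 to 8 (difference 4.13, SE 1.64, limma adjusted p 0.6). Ghrh, the growth hormone-releasing hormone of the arcuate nucleus, was at 0.41 and 0.02 against -3.06, -1.64, -1.61 and -2.41 (difference 2.39, SE 0.42, limma adjusted p 0.307). Galanin, from Gal, was nearly equal in the midline pair, at 2.55 and 2.54, against 0.41, 1.37, 0.87 and 0.62. Crh, the corticotropin-releasing hormone, was at 1.74 and 1.54 against 0.74, 0.71, 0.50 and 0.28. Trh, the thyrotropin-releasing hormone, was at 2.96 and 3.23 against 1.84, 1.82, 2.39 and 2.53.

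Of the 22 neuropeptide genes tested, 1 was called (Npvf), 10 lay above all intermediate levels and 4 below them, beside 10.0% and 12.6% over all probes. Their median difference was 1.02 (0.92 with dim levels raised to the detection limit), against -0.02 for all probes. The 4 below were Sst, Nts, Tac1 and Penk, with the widest gap, 0.45 log2, for Penk. Penk, which encodes proenkephalin, was at 5.71 and 5.70 against 6.64, 6.37, 6.16 and 6.25. Pomc overlapped, at 1.48 and 1.26 against 0.86, 0.96, 1.03 and 1.57.

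Transcription factors of the hypothalamus followed a like order. Hmx3, a homeobox factor of the developing hypothalamus, was at -1.46 and -2.84 in fractions 5 and 6 against -7.77, -4.71, -6.40 and -5.76, and was well above background in 1 of those 4. It was also high in lateral fraction 9, at -0.46, the highest of the 10 levels. Hmx2, its neighbouring relative, was at -3.66 and -3.59 against -7.86, -5.28, -5.68 and -5.85, and was well above background in 1 of those 4. Its level in fraction 9, -3.14, was not detected, as the lowest level detected there was -3.03. Nkx2-1, which specifies ventral forebrain and hypothalamus, was at -3.19 and -3.38 against -4.47, -4.07, -4.64 and -4.75. Rax, which marks the tanycytes of the third ventricle, was at -4.15 and -4.21 against -5.27, -5.06, -5.46 and -5.23. Both were detected in 2 of the 4 intermediate fractions. The lowest level detected in fraction 8 was -3.69, above both midline levels of Rax, so a like level could not have been detected there. In the tanycyte list, which also holds Rax, 1 of 5 genes lay above, 1 below, and the median difference was -0.23; Dio2, a deiodinase gene, had a difference of -0.59. Of the 14 factors tested, 0 were called. Above all intermediate levels lay 8 and below them 1, Six3, beside 10.0% and 12.6% of all probes. With normexp 3 lay above, beside 2055 of the 28886 probes. Counting only probes well above background on all 6 arrays left fewer factors, and 1 lay above, beside 2309 of 25079 probes.

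Among the named genes the widest measured gap was that of a serotonin gene, but it was set by an undetected level. Its rank is thus not fixed beside Gm5741, a predicted gene detected on all 6 arrays, whose gap was 3.17 log2. Slc6a4, the serotonin transporter, was at 0.87 and -0.60 in fractions 5 and 6, against -7.50, -4.81, -5.43 and -4.45 in fractions 3, 4, 7 and 8, where 1 of the 4 arrays was well above background. The measured levels were 3.85 apart, but the nearest, -4.45 in fraction 8, lay under that array's detection limit of -3.69. This gap therefore has no fixed size. Lateral levels of Slc6a4 reached only -2.70. The difference of 5.68 (SE 0.85) did not pass the test (limma adjusted p 0.249), and as 3 of the 4 low levels were not detected its size is not fixed; with normexp it was 2.67. Tph2, the rate-limiting enzyme of serotonin synthesis in neurons, was at -0.38 and -1.99 against -4.86, -4.57, -5.51 and -4.71, with 2 of the 4 detected (difference 3.73, SE 0.46, limma adjusted p 0.187, or 0.0386 with the mirror pair as a block; 1.70 with normexp). Here and below, the block fit used a negative correlation within pairs (-0.311), which by itself narrows the error of the difference. In lateral fraction 9 Tph2 stood at -2.05, close to fraction 6. Fev, a transcription factor of serotonin neurons, was at -1.97 and -3.27 against -4.67, -4.14, -6.16 and -4.96. Htr5b, which encodes a serotonin receptor, was at -0.54 and -1.02 against -2.34, -2.74, -2.78 and -2.55.

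All 6 serotonin genes tested, Gata2 and Gata3 included, lay above the intermediate levels in both midline fractions, and 0 of them were called. Over all probes 10.0% did. When probes had to be well above background on all 6 arrays, 2 genes of the list were left, Htr5b and Gata2. Both lay above, beside 2309 of 25079 probes, while Slc6a4, Tph2 and Fev were not among those left. In the other planes Htr5b peaked in horizontal fraction 6 and coronal fraction 2, where Slc6a4 and Tph2 did not peak. The median difference was 2.14, or 1.87 with dim levels raised to the detection limit and 1.13 with normexp. For 5 of the 6, Gata3 excepted, fraction 5 had the higher level of the pair.

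**Figure D2:**
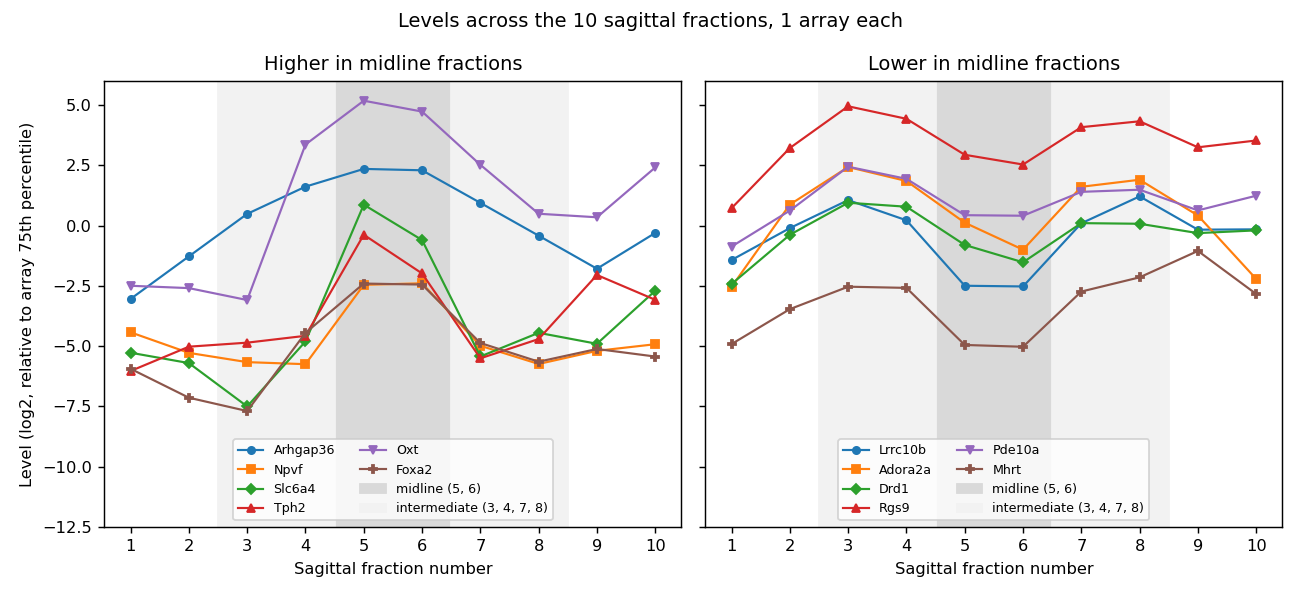
Level of 12 genes in each of the 10 sagittal fractions, 1 array per point, on a log2 scale relative to the 75th percentile of the array. Dark shading marks the midline fractions 5 and 6 and light shading the intermediate ones. Genes on the left peak in the dark band. Those on the right are lower there than in the light bands, and some are lower still in lateral fraction 1.

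Promoters are shown for Npvf and for a pair of serotonin genes with wide gaps in the same fractions, Tph2 and Slc6a4, with Lrrc10b, the gene with the widest gap in the other direction. Sequences run 5′ to 3′ from 250 bases before to 50 after the annotated start, from RefSeq on GRCm38.p6, and capitals mark matches to the motifs searched.
Npvf (chr6:50654396-50654695, reverse strand): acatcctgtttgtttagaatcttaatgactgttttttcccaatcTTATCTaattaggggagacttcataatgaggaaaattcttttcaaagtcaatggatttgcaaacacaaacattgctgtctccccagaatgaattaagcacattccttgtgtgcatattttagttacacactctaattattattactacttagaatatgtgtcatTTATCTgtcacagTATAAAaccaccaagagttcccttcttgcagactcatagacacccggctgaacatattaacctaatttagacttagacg
Tph2 (chr10:115184973-115185272, reverse strand): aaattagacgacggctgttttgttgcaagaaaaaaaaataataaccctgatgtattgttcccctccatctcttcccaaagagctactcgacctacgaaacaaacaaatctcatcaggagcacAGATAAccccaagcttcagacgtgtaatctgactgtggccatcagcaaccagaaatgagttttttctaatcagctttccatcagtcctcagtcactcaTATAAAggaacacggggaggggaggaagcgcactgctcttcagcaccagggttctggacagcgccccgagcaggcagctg
Slc6a4 (chr11:76998347-76998646, forward strand): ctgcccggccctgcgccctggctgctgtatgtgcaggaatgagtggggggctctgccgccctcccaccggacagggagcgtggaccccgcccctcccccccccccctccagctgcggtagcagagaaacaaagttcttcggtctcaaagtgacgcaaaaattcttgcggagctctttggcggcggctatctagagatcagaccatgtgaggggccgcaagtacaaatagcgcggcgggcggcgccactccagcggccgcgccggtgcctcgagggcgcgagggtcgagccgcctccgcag
Lrrc10b (chr19:10457398-10457697, reverse strand): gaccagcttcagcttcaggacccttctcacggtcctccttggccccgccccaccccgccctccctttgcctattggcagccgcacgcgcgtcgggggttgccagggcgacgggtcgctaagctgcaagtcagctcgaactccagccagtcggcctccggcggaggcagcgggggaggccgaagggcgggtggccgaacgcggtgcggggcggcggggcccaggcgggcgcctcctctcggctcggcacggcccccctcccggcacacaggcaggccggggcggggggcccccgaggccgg
Searched on both strands, the core promoter box TATAAA was in 13.6% of 32851 such promoters, AGATAA, the letters bound by the factors of the Gata family, in 11.2%, the forkhead letters TGTTTAC in 3.65%, and the cAMP response element TGACGTCA in 1.79%. Npvf holds the core promoter box from 29 bases before its start, and 2 matches to the Gata letters, both on the opposite strand. Tph2 holds the box from 30 bases before its start and 1 match to the Gata letters. None of the 4 motifs matched in the windows of Slc6a4 and Lrrc10b. Among named genes with an entry, 6 of 13 higher and 5 of 12 lower in midline held the core promoter box; a match describes the letters only.

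Single genes of the habenula and of dopamine neurons were higher in both midline fractions, and none was called. Pou4f1, a POU-domain factor of the medial habenula, was at 0.61 and 0.57 in fractions 5 and 6 against -3.97, -1.11, -1.42 and -3.04 (difference 2.98, SE 0.78, limma adjusted p 0.478). Gpr151, an orphan receptor of habenular neurons, was at -3.77 and -3.49, and its level on the 4 intermediate arrays, -7.76, -8.04, -5.98 and -5.78, was not well above background (at least 2.32-fold, limma adjusted p 0.414; 0.57 log2 with normexp). The level of -3.77 in fraction 5 was itself under the lowest level detected in fraction 8, -3.69. Chrnb4, a nicotinic receptor subunit of the same circuit, was at -1.88 and -1.87 against -2.92, -3.01, -2.73 and -2.85. These were the 3 of 6 listed habenula and interpeduncular genes that could be tested. In the other planes Gpr151 peaked in coronal fraction 6 and horizontal fraction 3. Pou4f1 peaked elsewhere, in coronal fraction 2 (1.34, beside -0.87 in coronal fraction 6). Its horizontal peak was in fraction 6 (-0.61, beside -0.71 in horizontal fraction 3). Which structure its midline level came from was not tested.

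Foxa2, a forkhead factor of the floor plate and of dopamine neurons, was at -2.41 and -2.45 in the midline against -7.70, -4.45, -4.87 and -5.65, with 1 of the 4 detected. Th, the rate-limiting enzyme of catecholamine synthesis, was at 4.55 and 4.63 against 1.62, 3.48, 3.92 and 2.70. Slc18a2, the vesicular monoamine transporter, was at 1.40 and 1.03 against -1.90, 0.38, -0.82 and -2.07. The dopamine transporter gene Slc6a3 overlapped, at 2.30 and 2.98 against 2.89 in fraction 4. Of 14 dopamine genes tested, 0 were called, 8 lay above all intermediate levels and 0 below, beside 10.0% and 12.6% of all probes, with a median difference of 1.35. Nr4a2, which the cortex also expresses, had a difference of -0.50.

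Among the remaining named genes, Rln3 encodes relaxin-3, a neuropeptide of the nucleus incertus in the pontine midline. It was at -2.37 and -2.81 in fractions 5 and 6 against -5.38, -4.85, -5.67 and -5.51 (difference 2.77, SE 0.26, limma adjusted p 0.0781), and was well above background in 1 of the 4. With normexp the difference was 0.75. Rln3 passed the test in 3 of 18 other settings. These were the mirror pair as a block (limma adjusted p 0.018), all 10 sagittal arrays (0.0205) and leaving out fraction 4 (0.0488). In 15 settings it did not pass, among them the slide as an added term (limma adjusted p 0.0992) and normexp (0.634). Gm5741, a predicted gene, was at 0.59 and 0.90 against -4.01, -4.20, -2.66 and -2.57, all well above background. Its difference was 4.11 (SE 0.51, 17.2-fold, limma adjusted p 0.187), or 2.92 with normexp. Gm5741 was the only probe called with the slide as an added term (difference 3.36, limma adjusted p 0.0383). Pyy, which encodes the hormone peptide YY, was at -1.10 and -1.97 against -4.70, -4.68, -4.03 and -3.79, with 2 of the 4 detected. Gm5741 and Pyy also passed with the mirror pair as a block (limma adjusted p 0.0386 for both). Prdm12, a transcriptional regulator known from sensory neurons, was at -2.44 and -2.09 against -5.37, -4.24, -4.73 and -5.71. Krt90, a keratin gene, was at -3.02 and -3.23 and not well above background in the intermediate fractions (at least 3.16-fold, limma adjusted p 0.266; 0.58 log2 with normexp).

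The second probe that rose, A_55_P1999108, matched no symbol. It was at -3.04 and -3.17 in fractions 5 and 6 and at -5.84, -6.15, -5.71 and -5.52 in the intermediate fractions, none of them well above background (at least 3.34-fold, limma adjusted p 0.0404, computed on levels that were not detected). Its highest sagittal level was in lateral fraction 9, at -1.23.

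In the other direction Mhrt, a long non-coding transcript of the myosin heavy chain locus known from the heart, fell. It was at -4.95 and -5.03 in fractions 5 and 6, not well above background, against -2.54, -2.59, -2.74 and -2.15 in fractions 3, 4, 7 and 8 (at least 4.93-fold lower; limma adjusted p 0.0404, computed on midline levels that were not detected). The measured levels were 2.22 apart, a gap without a fixed size as the midline levels were not detected. With normexp the difference was -0.91. Lateral fraction 1 was also under its detection limit, while fraction 9 was the highest of all, at -1.05. The call was kept in 4 of 18 other settings, with adjusted p from 0.0126 to 1, and leaving out fraction 3, 4, 5, 6 or 7 gave limma adjusted p of 0.226, 0.0915, 0.274, 0.179 or 0.164.

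Striatal genes were lower in both midline fractions, with levels well above background throughout. Lrrc10b, a leucine-rich repeat gene, was at -2.50 and -2.53 in fractions 5 and 6 against 1.06, 0.22, 0.10 and 1.21, with all 6 arrays well above background. The midline pair differed by 0.03 while the groups were 2.59 apart (difference -3.16, SE 0.35, limma adjusted p 0.15). Adora2a, an adenosine receptor of striatopallidal neurons, was at 0.12 and -0.9997 against 2.43, 1.85, 1.61 and 1.90 (difference -2.39, SE 0.35, limma adjusted p 0.23). Drd1, the D1 dopamine receptor of the striatonigral pathway, was at -0.80 and -1.52 against 0.95, 0.78, 0.10 and 0.08. Drd2, the D2 receptor, was at -3.21 and -3.33 against -1.69, -1.75, -2.35 and -1.70.

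Signalling proteins downstream of these receptors had the same order. Rgs9, a regulator of G protein signalling in striatum, was at 2.94 and 2.53 against 4.95, 4.43, 4.09 and 4.33 (difference -1.71, SE 0.26, limma adjusted p 0.249), and all 3 of its tested probes had the same direction. Gng7, a G protein gamma subunit, was at 3.55 and 3.17 against 4.80, 4.66, 4.61 and 5.38. Pde10a, the phosphodiesterase of medium spiny neurons, was at 0.43 and 0.41 against 2.44, 1.94, 1.40 and 1.49. Ppp1r1b, which encodes DARPP-32, was at 5.13 and 4.59 against 6.63, 6.11, 5.82 and 6.47. Of 14 striatal genes tested, 0 were called, 13 lay below all intermediate levels and 0 above, beside 12.6% of all probes below, and their median difference was -1.32. The exception, Foxp1, overlapped with fraction 8, at 3.42 and 3.29 in the midline against 3.41 there. The count was 13 under each of the other scalings and filters. In each of the 14 genes fraction 6 was lower than fraction 5. A low level was not particular to the midline. The list mean was 1.02 in lateral fraction 1, under 1.72 and 1.31 in fractions 5 and 6. In lateral fractions 2, 9 and 10 it was 1.96, 2.00 and 2.03. Adora2a was at -2.54 and -2.22 in fractions 1 and 10, under both its midline levels. Lateral levels of Lrrc10b, -1.43 to -0.10, were all above the midline.

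The named genes outside the striatum were mostly dim. Ccl8, a chemokine, was at -5.58 and -4.73 in fractions 5 and 6, not well above background, against -1.61, -3.49, -3.30 and -0.82 (at least 5.601-fold lower, limma adjusted p 0.491; -0.97 log2 with normexp). Retnla and Retn, of the resistin family, had differences of -2.62 (limma adjusted p 0.414) and -1.75 (limma adjusted p 0.455). With normexp these were -1.31 and -1.03. Krt71, a hair follicle keratin, and Adamts13, the protease of von Willebrand factor, were not well above background in the midline and at least 2.42-fold and 2.45-fold lower there, or -0.57 and -0.48 log2 with normexp. Tnnt1, a troponin gene in the thalamus list, was at 2.06 and 1.98 against 3.00, 3.50, 3.43 and 3.19 (difference -1.26, SE 0.18, limma adjusted p 0.23). Tm6sf2, a lipid metabolism gene, had a difference of -1.36.

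**Figure D3:**
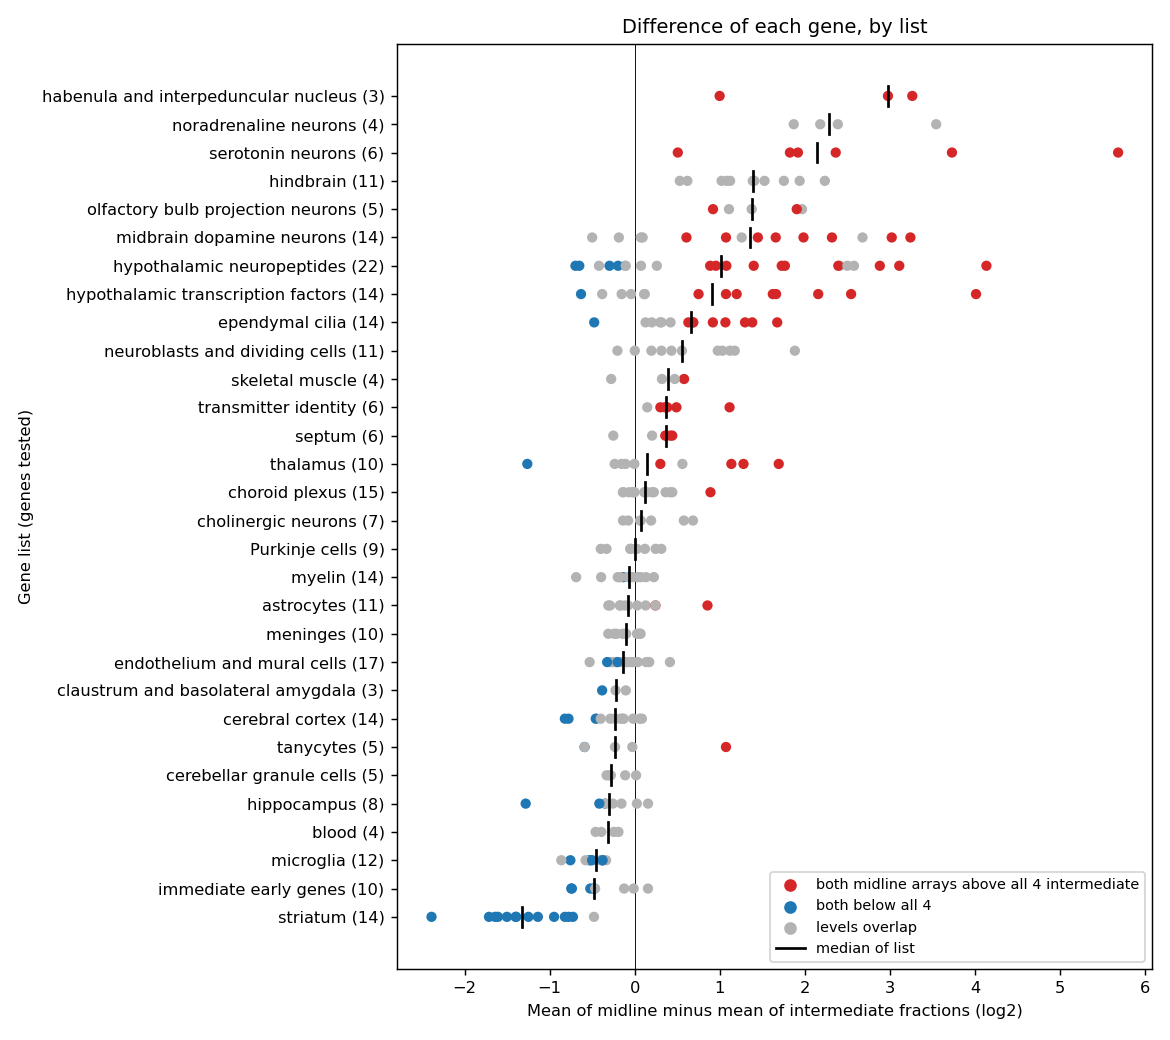
Difference between the mean of the midline and the mean of the intermediate fractions (log2) for each gene tested, by gene list, with the number of genes tested and the list median as a bar. Red points lie above all 4 intermediate arrays in both midline fractions and blue points below; serotonin, habenula and striatum lists are nearly or wholly of 1 colour.

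Markers of other cell types were examined to see which moved with the midline. Of 14 genes of ependymal cilia, which line the ventricles, 8 lay above all intermediate levels and 1 below, beside 10.0% and 12.6% of all probes (median difference 0.66, or 0.395 with normexp). Tmem212 was at 0.31 and 0.10 against -1.46, -2.35, -1.18 and -0.88, and Ccdc153 at 2.32 and 1.71 against 0.85, -0.21, 0.85 and 1.40. Choroid plexus, which shares the ventricles, did not separate, with 1 of 15 above and a median of 0.12; Ttr, transthyretin, was at 7.24 and 7.21 against 7.80, 6.57, 7.12 and 7.97.

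The microglia list had 6 of 12 genes below all intermediate levels and 0 above (median -0.45), beside 12.6% of all probes below and 10.0% above, shares that apply to each count in this paragraph and the next unless another setting is named. With the array median 2100 of the 28886 probes lay below and 3642 above. Its mean level was 3.24 and 3.36 in fractions 5 and 6 against 3.63, 3.55, 3.81 and 4.21, and all 12 genes were below on the slide that the midline shares with fractions 7 and 8, where 8003 of the 28886 probes were. P2ry12, a microglial purinergic receptor, was at 0.31 and 0.29 against 0.75, 0.73, 0.70 and 1.105. Immediate early genes had 5 of 10 below (median -0.48), or 1 with the array median; Npas4 was at 0.38 and 0.33 against 1.05, 0.76, 0.83 and 0.87. Myelin (0 above and 1 below of 14), astrocyte (2 and 0 of 11), vascular (0 and 2 of 17) and meningeal genes (0 and 0 of 10) had medians of -0.07, -0.08, -0.14 and -0.11, and the first pair of these medians changed sign with the array median and with quantile normalization. The part of these cell types in the differences above was not tested.

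Cortical and hippocampal lists had 3 of 14 and 3 of 8 genes below and 0 above, or 2 and 1 below with the array median. Slc17a7, the main vesicular glutamate transporter of cortex, was at 1.92 and 2.74 against 3.30, 2.87, 2.96 and 3.46, and Emx1, a dorsal telencephalic homeobox gene, at -0.75 and -0.62 against 0.49, -0.19, -0.27 and 0.33. Of 10 thalamic genes 4 lay above and 1 below, Gbx2 at -0.93 and -0.97 against -3.07, -1.99, -2.36 and -3.16 being the widest apart. Among the transmitter genes 5 of 6 lay above, Gad1 by the widest gap at 0.09 log2, and 1 of 6 with the array median. Granule, Purkinje, cholinergic and blood genes had 0 without overlap.

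The step from the midline to its neighbours was set apart from the step between the inner pair of intermediate fractions, 4 and 7, and the outer pair, 3 and 8. For serotonin genes neither step has a fixed size for Slc6a4, Tph2 and Fev, which were detected in 1 or 2 of the 4 intermediate fractions. Htr5b, detected throughout, had steps of 1.98 and -0.31, and Gata2 had 0.46 and 0.10. Gata3 had an inner step of 0.75 and was detected in 3 of the 4 intermediate fractions. For striatal genes the median steps were -1.11 and -0.37. Hindbrain genes, 10 of them Hox factors that pattern the hindbrain and spinal cord along their length, had a median inner step of 0.13, and none of the 11 lay above all intermediate levels, beside 10.0% of all probes. All 11 were detected in fractions 3, 4 and 7 and none in fraction 8, so the outer step has no fixed size. Hoxb5 was at 0.25 and 0.51 in the midline, 0.83 and 0.17 in fractions 4 and 7, and -2.34 and -4.16 in fractions 3 and 8, the last of these not detected. Among noradrenaline genes, Slc6a2, the noradrenaline transporter, lay under the detection limit in fractions 3 and 8. Dbh, which makes noradrenaline from dopamine, was at 1.14 and 2.01 in the midline, 1.49 in fraction 4 and -0.32 in fraction 7.

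Among the hypothalamic peptides, Pmch, Hcrt and Avp had inner steps of -0.54, -0.21 and -0.12. Their outer steps were 6.23, 5.42 and 5.06. Over all 22 peptides tested the median steps were 0.34 and -0.07. Pmch, the melanin-concentrating hormone precursor, was at 2.21 and 2.90 in fractions 5 and 6, 3.33 and 2.85 in fractions 4 and 7, and -5.04 and -1.23 in fractions 3 and 8. Hcrt, the orexin precursor, was at 3.15 and 4.34 in the midline, 4.32 and 3.60 in the inner pair and -2.65 and -0.28 in the outer pair. Avp, vasopressin, was at 2.74 and 3.28, then 3.47 and 2.78, then -3.31 and -0.55. None of these 3 separated midline from intermediate fractions. Oxt differed from Avp in this, with a midline step of 2.01 beside an outer step of 4.24. Over all probes, levels declined outward on both sides for 6.98% and climbed outward for 10.4%, against 19 and 0 of the 44 probes with gaps over 1 log2 and higher midline levels, and 0 and 14 of the 17 with lower ones; part of that order is fixed by how those probes were chosen.

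**Figure D4:**
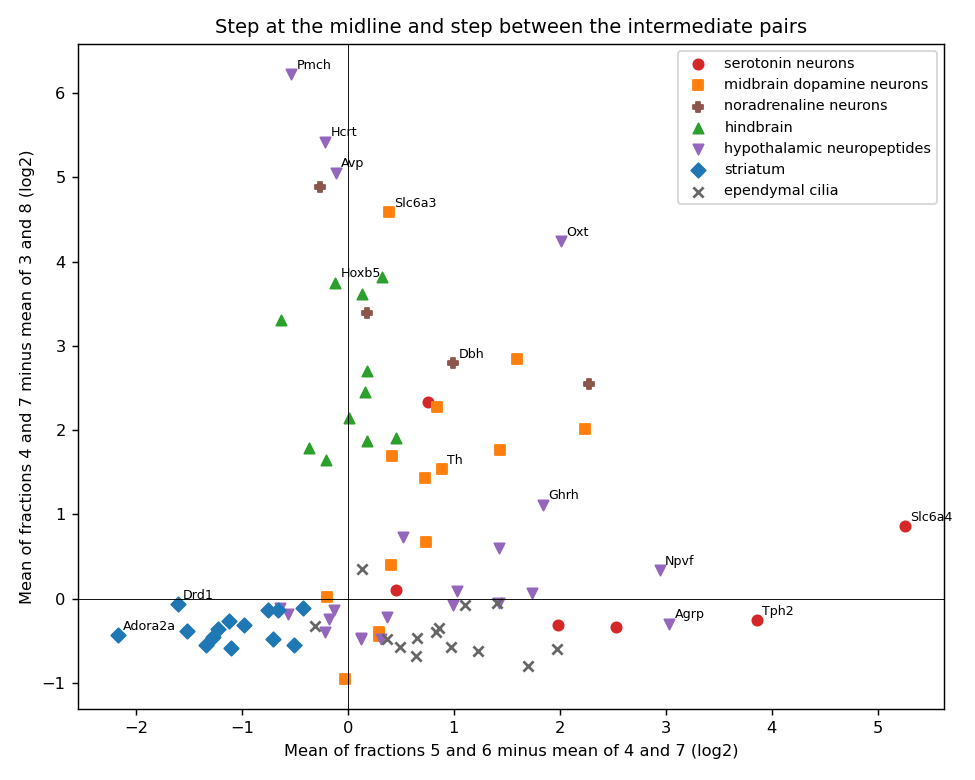
Each point is a gene of one of 7 lists. The horizontal axis is the mean of fractions 5 and 6 minus the mean of 4 and 7, and the vertical axis the mean of 4 and 7 minus the mean of 3 and 8 (log2); Slc6a4 and Tph2, undetected in fractions 7 and 8, lie far right, Pmch, Hcrt and Hoxb5 far up near the zero of the horizontal axis, and striatal genes to the left.

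The midline pair was compared within itself. The median absolute difference between fractions 5 and 6 over tested probes was 0.177 log2, beside 0.183 for fractions 4 and 7 and 0.363 for 3 and 8, and 0.148 and 0.300 for the neighbours 3 and 4 and 7 and 8. Of 28797 probes well above background in both, 344 were over 1 log2 higher in fraction 5 and 291 in fraction 6 (2.21% together). Agrp, the agouti-related peptide of arcuate feeding neurons, was at 2.01 in fraction 5 and -0.41 in fraction 6, against -2.93, -3.03, -1.44 and -0.95. Cartpt, the CART peptide precursor of the same region, was at 3.98 and 2.85, against 1.99, 1.83, 2.15 and 2.10. Ucn, which encodes urocortin, was at -0.37 and -3.02, with 4 intermediate levels from -3.76 to -1.89. Ucn was named after its values were seen. All 10 meningeal and all 4 blood genes were higher in fraction 6, by a median of 0.46 and 0.80. With 1 array each, these differences have no replicate check.

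Both sides of the brain were then read apart, as fraction 5 against 3 and 4, and fraction 6 against 7 and 8. The sign agreed for 16483 probes (57.1%), and both differences exceeded 1 log2 upward for 194 probes and downward for 64. Slide limits this reading. Fractions 3 and 4 were on another slide, scanned in another session, than the 2 midline and the other 2 intermediate fractions. Within the shared slide limma called 0 of 28886 probes, with 1337 higher and 1692 lower at an unadjusted p under 0.05, and with the slide as an added term it called 1. Among genes detected on all 6 arrays, the difference within the slide was 3.36 for Gm5741, 2.06 for Arhgap36, -3.17 for Lrrc10b and -2.20 for Adora2a. Npvf, Slc6a4 and Tph2 lay under the detection limit in both fractions 7 and 8.

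In the brains cut in the other planes, the same genes took different places. Of 33 probes with wide gaps, higher midline levels and a horizontal peak well above background, 57.6% peaked in horizontal fraction 6, against 26.2% of all tested probes. Of the 16 with lower midline levels, 43.8% peaked there too. Oxt, Npvf and Ghrh peaked in that fraction. Slc6a4 and Tph2 peaked together in horizontal fraction 4 and coronal fraction 4, at 1.04 for Slc6a4 in the latter, and Rln3 also in coronal fraction 4. Of 16 probes with wide gaps, lower midline levels and a coronal peak, 43.8% peaked in coronal fraction 8, against 7.36% of all tested probes, among them Lrrc10b, Adora2a, Rgs9 and Gng7. The planes come from different mice, 1 each, and these shares carry no test.

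**Figure D5:**
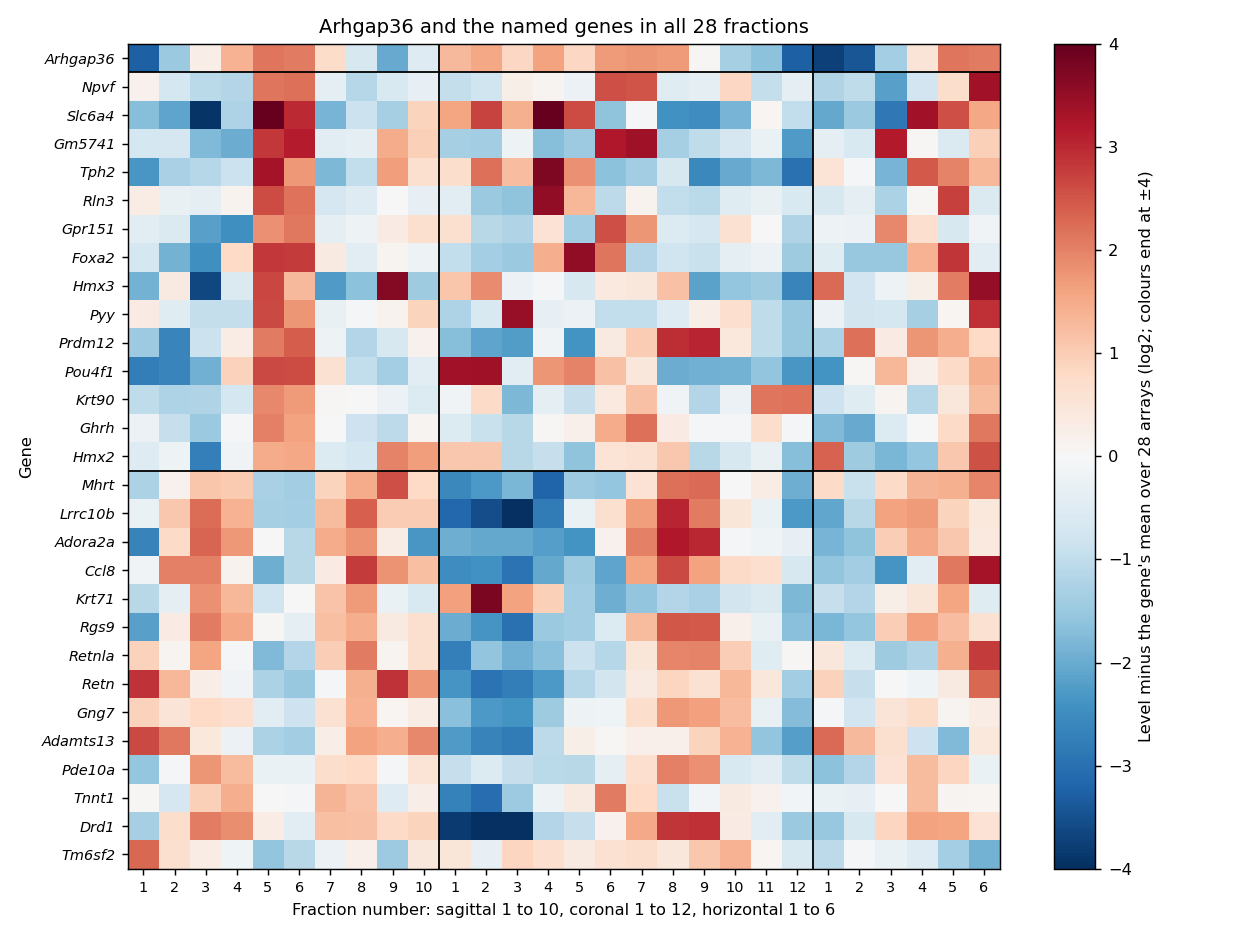
Heat map of Arhgap36, 14 named genes higher in midline and 14 lower (rows) over the 10 sagittal, 12 coronal and 6 horizontal fractions (columns). Colour is the level minus the gene's mean over the 28 arrays (log2), with 1 array per cell; the upper block is red in sagittal columns 5 and 6, and the lower block pale or blue there.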

How the data were processed

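Brains of male C57BL/6J mice were frozen, sectioned and pooled into fractions, and total RNA was hybridised, with Cy3 as the only dye, to Agilent arrays of 62976 spots. Spot intensity values were deposited as Feature Extraction 10.5.1.1 wrote them, with local background removed and with 0 or 1 flags, other values of the deposited files, for detection and outliers. A log2 table that the authors deposited held the same scaling, apart from offsets of up to 0.00758 an array.

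Here, spots flagged as outliers were left out (108 to 169 on the 6 arrays), spots of a probe were averaged, and log2 values were set relative to the 75th percentile of their array. That percentile was 419 and 435 on the midline arrays and 269 to 568 on the intermediate ones, where fraction 8 was the dimmest and had the fewest probes well above background (26329). The number of arrays limits the precision. Repeated spots of a probe had a median SD of 0.0598 to 0.0687 log2. Probes were matched to RefSeq symbols of GRCm38.p6 (27235 of 55681, 48.9%, named), and 13 probes that lost a spot were dropped. Midline and intermediate fractions were compared by limma 3.58.1 in R 4.3.3 (lmFit and eBayes), checked on simulated data. The named genes are Arhgap36 and, per direction, up to 15 symbols whose groups do not overlap, those past an adjusted p of 0.05 first and then those with an unadjusted p under 0.05, by gap. In each direction 1 of these is not reported here. Lists use 1 tested probe a gene, the brightest on average, so Pde10a has another probe in its list (difference -1.14) than among the named genes. The comparison, the lists and the rule were chosen with earlier results of these data known. Alternatives were other scalings, filters and added terms and leaving out each array. Background correction by normexp used the median foreground, in place of the mean that had been planned, and an offset of 50. Numbers shared by fractions mark positions, not pairs.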

Additional observations from a re-analysis of the deposited data

Results flagged for a closer look

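Among 63 sets of levels (named genes and list means), 4 stood out, 2 by the distance of 1 level from the rest and 2 by opposite sides. By the first of these rules chance alone sets apart about 1 in 20 groups, or 3.2 here, beside the 2 found. In the 4 intermediate fractions, Npvf in fraction 7 (-4.99) lay apart from the nearest other level (-5.67), with a gap over range of 0.889, above Dixon's critical value; none of these 4 levels was well above background. The mean of the septum list in fraction 3 (0.77) lay apart from the nearest (0.35), with 0.839.

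Both sides of the midline went opposite ways for 2 list means, in every fraction, and this was not tested. The cholinergic list differed by -0.92 log2 between the sides, being -0.26 for fraction 5 against 3 and 4 and 0.65 for fraction 6 against 7 and 8. The astrocyte list differed by 0.16, being 0.11 and -0.05.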

How the results depend on the processing

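No paired analysis was possible because the groups compared share no fraction number in the labels; fits with side, slide or mirror pair as a term are given here instead. Of 554 values recomputed for the named differences, 27 lost a call and 9 gained one, among them Rln3, Tph2, Pyy and Gm5741 with the mirror pair as a block. These genes were chosen for groups that do not overlap, so their kept direction is no sign of stability. Each mirror pair lies within 1 group, and the negative correlation fitted within pairs narrows the error. Calls gained with that block are therefore no stronger result than the main fit. Calls were few and moved with most settings. Against 2 higher and 1 lower, limma called 0 and 0 with quantile normalization, normexp, a filter on all 6 arrays, no filter, the flag for positive and significant signal, the side of the brain as an added term, a variance prior with trend, or the fractions of 1 slide; 1 and 0 with the slide as an added term; 13 higher with the mirror pair as a random block (correlation -0.311); and 0 lower with all 10 sagittal arrays. At an unadjusted p under 0.05 these settings gave 438 to 1917 higher and 346 to 2916 lower. Leaving out each array in turn gave 0 to 4 higher and 0 to 1 lower: higher, 0 without fraction 3 or 5, 1 without 7 or 8, 3 without 4 and 4 without 6; lower, 1 without 8 and 0 otherwise.

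Probes without overlap numbered 2100 lower with the array median, and 6886 higher and 8003 lower on 1 slide; the scalings put 38.8% (normexp), 44.3% (as reported), 56.9% (quantile) and 63.4% (array median) of them on the higher side. Leaving out each array gave 3545 to 6797 higher and 4494 to 7848 lower, being 4942 and 6194 without fraction 5 and 6797 and 7848 without fraction 6. Gaps over 1 log2 numbered 7 higher and 4 lower with normexp, 8 and 10 with the filter on all 6 arrays, 158 and 64 on 1 slide, 75 lower with no filter and 48 lower with the positive and significant flag. Levels raised to the detection limit, an alternative chosen after seeing the data, gave 21 higher. Leaving out each array gave 57 to 181 higher and 18 to 141 lower (90 higher without fraction 4, 98 and 67 without 5, 181 and 141 without 6, 70 and 30 without 7). Fewer arrays in a group make no overlap easier, by construction.

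Hypothalamic factors above all intermediate levels numbered 3 with normexp and 1 with the filter on all 6 arrays, which leaves fewer genes to count, serotonin genes 2 with that filter, which leaves 2 to count, and microglial genes below 12 on 1 slide. Leaving out an array cannot lower such a count; it gave 6 serotonin genes, 8 to 10 dopamine genes, 10 to 11 neuropeptides, 8 to 9 hypothalamic factors, 3 habenular genes, 8 to 11 ciliary genes, 13 to 14 striatal genes and 6 to 10 microglial genes (10 without fraction 4 or 6). The difference of Arhgap36 lay between 1.31 and 1.99 without each array. Signal over background limits the dim genes: the lowest level well above background was -5.85 to -3.69 on the intermediate arrays, so most of their low levels have no order.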

Other observations

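Single genes of the olfactory bulb and of migrating neuroblasts, chosen after their values were seen, had higher levels in the midline pair and fraction 7. Cdhr1, a protocadherin-related gene of mitral and tufted cells, was at 2.06 and 2.46 in fractions 5 and 6, at 1.86 in fraction 7, and at -1.31, 0.06 and 0.80 in fractions 3, 4 and 8. Eomes, a T-box factor of bulb projection neurons, was at 0.75, 0.90 and 0.55 in fractions 5, 6 and 7. Its mean was -0.08 over fractions 3 and 8 and -0.11 over fractions 4 and 7. These means do not give fraction 8 alone, so for Eomes they do not place fraction 7 above it. Dcx, the doublecortin gene of migrating neurons, was at 1.00, 1.04 and 1.32 there and between -0.65 and -0.25 in fractions 3, 4 and 8. Dlx2, an interneuron homeobox gene, was at 0.37, 0.13 and 0.30 there, and at -1.21, -1.22 and -1.35 in the others. Dlx6, a related gene, did not have this order, with a midline mean of -2.77 against -2.63 in fractions 4 and 7 and -2.50 in fractions 3 and 8. Of 5 bulb genes 2 lay above all intermediate levels and of 11 neuroblast genes 0, beside 10.0% of all probes, and with the array median 3 of the 11 did, beside 3642 of 28886 probes.

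Single probes stood far above the rest in fraction 5 alone, named here after their values were seen. The probe of Plk1, a mitotic kinase, was at 7.65 in fraction 5 and at -2.62, -2.66, -2.49, -1.9997 and -2.39 in fractions 3, 4, 6, 7 and 8. Det1, a ubiquitin ligase adaptor, was at 7.04 against -0.82 to -0.58 in the other 5 arrays, and Npepl1, an aminopeptidase gene, at 6.81 against 0.42 to 1.36. Each is 1 probe on 1 array, and a cause was not tested.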
